A study of Mus musculus with 6 samples.

Results

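Expression of 10 genes of mitochondrial fatty acid oxidation was followed in cultured neural stem cells of aged and young mice. The genes were listed by symbol for their place in the pathway, with earlier results of these data known, among the 17006 genes in the deposited tables: Cpt1a, Cpt1c, Cpt2, Slc25a20, Acadvl, Acadl, Acadm, Hadha, Hadhb and Etfdh. Primary cells had been isolated from the subventricular zone, the germinal layer beside the lateral ventricles of the brain, and kept in proliferation medium before bulk RNA sequencing. The aged group (15 to 18 months) and the young group (2 months) were C57BL/6 mice with 3 libraries each, labelled as neural stem cells, with no treatment or altered allele named. Tissue of 5 mice was pooled before dissociation. The labels do not say whether the libraries of an age came from separate pools or cultures, so p-values measure the spread between these libraries, which may be technical.

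Mitochondria burn fatty acids in repeated rounds. Carnitine palmitoyltransferases and a carnitine carrier bring activated long chains through the mitochondrial membranes, acyl-CoA dehydrogenases take out the first electrons, and the trifunctional protein completes the round for long chains. Electrons from the dehydrogenases reach the respiratory chain through the electron transfer flavoprotein and its dehydrogenase. In the adult brain the pathway is known from astrocytes and from neural stem cells, where the transport step catalysed by Cpt1a is known for its link to quiescence and proliferation.

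The values are FPKM, fragment counts scaled to transcript length and library size, as the authors deposited them, so levels can be compared between genes. From the steps between low values, each library was estimated to hold 5295000 to 5480000 counted reads. All 10 genes lay above the mean of 1 FPKM required for testing. The libraries carried transcripts of neural progenitors, with Fabp7 at 2661.74 to 2877.74 FPKM, Vim at 1521.71 to 1687.63 FPKM and Sox2 at 165.03 to 185.63 FPKM over all 6. Some defining markers of other cell types were at or near 0. Ptprc of microglia was at 0.04 FPKM or less, Pecam1 of endothelium at 0.17 FPKM or less and Stmn2 of neurons at 0.1 FPKM or less. Mog and Mag of mature oligodendrocytes were at 0.22 FPKM or less. Other genes of the same lists, which progenitors can express too, were high or differed between the ages. The 10 oligodendrocyte lineage markers summed to 2047 to 2088 FPKM in aged and 1940 to 1984 FPKM in young libraries, mostly Olig1 and Olig2, and 5 of the 7 tested were higher in aged libraries. The 7 astrocyte markers summed to 501.1 to 512.6 FPKM in aged and 501.9 to 504.7 FPKM in young libraries, with 6 of 7 higher in aged libraries (0 past limma; Aldoc had the smallest adjusted p, 0.0601) and Aldh1l1 lower. The 9 neuronal markers summed to 142.8 to 151.5 FPKM in aged and 145 to 149.4 FPKM in young libraries, mostly Map2. Of the 4 tested, 3 did not overlap between the ages. Tubb3 (11.26 to 12.69 FPKM in aged, 8.83 to 10.41 FPKM in young libraries) and Snap25 were higher in aged libraries. Map2 was lower, at 119.97 to 127.02 FPKM in aged and 129 to 131.12 FPKM in young libraries. The 5 endothelial markers summed to 3 to 3.34 FPKM in aged and 2.26 to 3.57 FPKM in young libraries, with Egfl7 at 2.42 to 2.71 FPKM in aged and 1.25 to 1.72 FPKM in young libraries, and the 4 microglial ones to 3.06 to 3.5 FPKM in aged and 2.88 to 4.19 FPKM in young libraries, mostly Cd68. The 7 fibroblast and pericyte markers summed to 3.11 to 4.08 FPKM in aged and 0.93 to 1.16 FPKM in young libraries. Of these, Col1a1 was at 2.04 to 2.81 FPKM in aged and 0.31 to 0.54 FPKM in young libraries (limma adjusted p = 0.0107), while Dcn and Pdgfrb were at 0 in 5 of 6 libraries each. The 4 markers of ependyma and choroid plexus summed to 8.57 to 12.25 FPKM in aged and 10.89 to 12.79 FPKM in young libraries. Most of this was Foxj1 of ependyma, at 8.49 to 12.74 FPKM over all 6 libraries, while Hydin, Dnah5 and Kcnj13 were at 0.14 FPKM or less. The part of these cells in the results was not tested, and in bulk RNA fewer cells of a type and less RNA per cell cannot be told apart.

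Of the 10 genes, 0 passed limma, a linear model fitted over all genes, at a Benjamini-Hochberg adjusted p under 0.05, and the smallest adjusted p was 0.269. Among all 11912 genes tested, 86 passed, which is 0.722% (39 to 63 genes with a library left out). At an unadjusted p under 0.05 there were 3 of the 10, Acadm higher and Cpt1c and Slc25a20 lower in aged libraries, against 11.9% of all genes. Values of aged and young libraries did not overlap for 3 of the 10 (Acadm, Etfdh and Cpt1c), against 17.6% of all genes. These counts are small and are not set apart from the background by a test. With 5 genes higher and 5 lower, the median absolute log2 change was 0.056 for the 10 and 0.070 for all genes tested. Intervals given as times the young level are of FPKM + 1, here and below. None reached outside 0.76 to 1.22 times the young level. Larger changes on that scale are outside the 95% interval of each gene taken alone.

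**Figure D1:**
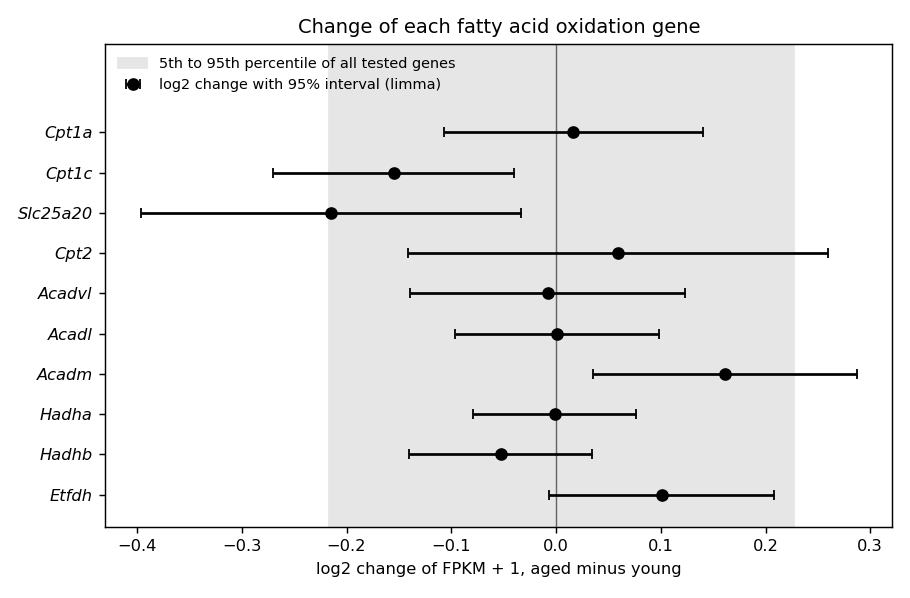
Each point is the log2 change of FPKM + 1 (aged minus young, horizontal axis) of a fatty acid oxidation gene, with its 95% interval from limma; the grey band spans the 5th to 95th percentile of all tested genes (-0.217 to 0.227). All 10 points lie inside the band, and the intervals of Cpt1c, Slc25a20 and Acadm leave out 0 without passing adjustment.

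Sequence next to the genes is shown for the 3 with an unadjusted p under 0.05 and for the pair Hadha and Hadhb, which shares a start region. The first 3 stretches run from 200 to 51 bases before the start in RefSeq's promoter table, which for Cpt1c is 44974851, inside the gene bounds given with its values, and the last lies between the starts of the pair in GENCODE vM21. All are 5′ to 3′ on the strand named and hold no annotated exon. They come from RefSeq (GRCm38.p6, the mm10 assembly). Capitals mark 4 motifs on either strand: AGGTCA (the core bound by many nuclear receptors, PPARs among them), GGGCGG (a GC box), CCGGAAG (an ETS-type site) and GCATGCGC (the core of an NRF1 site).
Acadm, chr3:153944694-153944843, minus strand: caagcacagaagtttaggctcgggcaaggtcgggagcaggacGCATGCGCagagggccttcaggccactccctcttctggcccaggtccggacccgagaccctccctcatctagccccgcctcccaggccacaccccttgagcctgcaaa
Cpt1c, chr7:44974902-44975051, minus strand: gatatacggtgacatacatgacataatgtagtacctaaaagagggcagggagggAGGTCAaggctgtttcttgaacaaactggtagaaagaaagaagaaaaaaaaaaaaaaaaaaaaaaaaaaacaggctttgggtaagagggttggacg
Slc25a20, chr9:108661936-108662085, plus strand: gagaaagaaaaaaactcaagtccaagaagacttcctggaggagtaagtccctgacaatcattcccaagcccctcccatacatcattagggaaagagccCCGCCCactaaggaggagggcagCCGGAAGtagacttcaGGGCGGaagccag
Hadha and Hadhb, chr5:30155163-30155247, plus strand: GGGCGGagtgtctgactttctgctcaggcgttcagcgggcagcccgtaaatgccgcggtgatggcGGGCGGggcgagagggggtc

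The stretches differ in composition as well as in motifs. The one of Cpt1c holds a long run of A and, within these 150 bases, no GC box, though its longer window described next holds one. That of Slc25a20 has GC boxes beside an ETS-type site. A link of these letters to the changes with age was not tested. Promoter windows of 300 bases (250 before to 50 after the start) were matched for 10 of the 10 genes and set against all 32851 windows of the table. GGGCGG was in 8 of 10 windows and in 35.7% of all windows, and AGGTCA in 4 of 10 (Acadm, Cpt1c, Acadvl and Cpt1a) and in 16.3% of all. The windows of Hadha and Hadhb overlap and share a GC box, so the 8 windows with GGGCGG are not independent. The set of all windows was not matched to the 10 genes for GC content or expression. Windows of Etfdh and Acadm held GCATGCGC (2.71% of all), and those of Cpt2 and Slc25a20 held CCGGAAG (8.86% of all). CCAAT was in 3 of 10 and in 37.4% of all windows. A PPAR element of the DR1 type, with AGGTCA repeated after a spacer base, was in 0 of 10 and in 0.0396% of all windows, and the YY1 motif AAGATGGC in 0 of 10 and in 2.75% of all. AAGGTCA, an extended form of AGGTCA bound by ERR receptors that the AGGTCA count includes, was in the Acadm window and in 4.72% of all. GC content ran from 47.3% (Cpt1c) to 70.3% (Acadl), with a median of 52.7% over all windows. These matches describe letters in the windows and do not show binding.

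The entry step is taken by the CPT1 enzymes of the outer membrane, which join long acyl chains to carnitine and are inhibited by malonyl-CoA. Cpt1a, the widely expressed isoform (chromosome 19, 3322326 to 3385735), was measured at 25.28, 24.48 and 25.27 FPKM in aged libraries and at 24.92, 23.3 and 25.99 FPKM in young ones. The aged values lay within the young range. By limma its log2 change of 0.016 ± 0.054 (SE) had an adjusted p of 0.942, and the 95% interval ran from 0.929 to 1.10 times the young level. About 551 to 615 estimated reads stood behind each value.

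Cpt1c, the isoform of the nervous system, which lies in the endoplasmic reticulum and has little transferase activity (chromosome 7, 44958483 to 44974880), was at 38.22, 34.77 and 34.45 FPKM in aged and at 39.54, 39.93 and 40.36 FPKM in young libraries. All 3 aged values were below all 3 young ones, with aged 1 close to them. Means were 35.8 ± 2.09 FPKM in aged and 39.9 ± 0.41 FPKM in young libraries (SD, n = 3 each). The log2 change of -0.15 ± 0.05 (SE) had an unadjusted p of 0.0141 and a limma adjusted p of 0.269. In young libraries the values varied by 1.03% (coefficient of variation), less than the 4.18% of read counting alone. An annotated antisense transcript, 6530437J22Rik, overlaps an exon of Cpt1c on the other strand, and the strand setting of the counting is not given in the sources used here.

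Within a library, the level of Cpt1a was 0.661, 0.704 and 0.734 times that of Cpt1c in aged and 0.630, 0.584 and 0.644 times in young libraries. The aged ratios lay above the young ones without overlap, and the exact two-sided permutation test gave p = 0.1, the smallest that 3 against 3 libraries allow. Most of the shift came with Cpt1c, since Cpt1a differed little between the ages. In every library the isoform of the nervous system thus had the higher FPKM. The muscle isoform Cpt1b was listed at 2.63, 0 and 0.78 FPKM in aged and at 0.72, 0.61 and 0 FPKM in young libraries, too uneven for a comparison and below the mean required for testing.

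**Figure D2:**
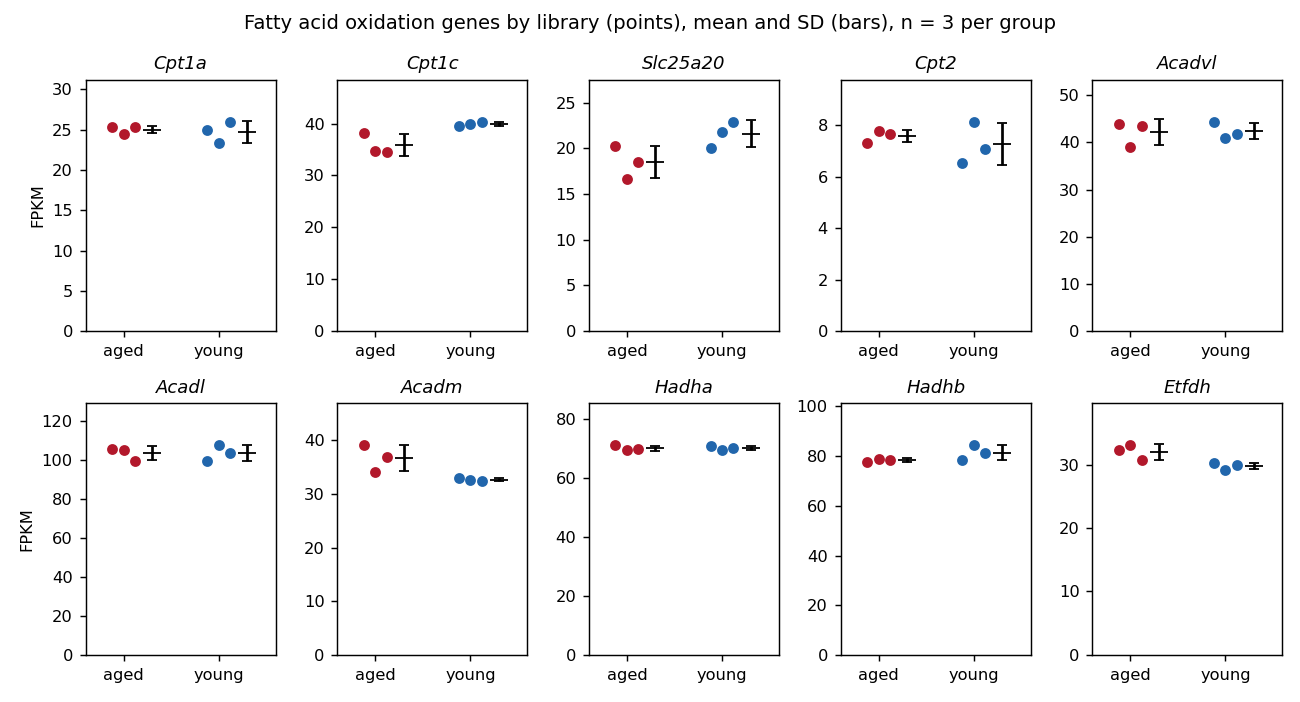
FPKM (vertical axes, starting at 0) of each gene in the 3 aged libraries (red, left) and the 3 young libraries (blue, right), with mean and SD as black bars. Aged points lie below young ones for Cpt1c and above them for Acadm and Etfdh, and the groups share values or ranges in the other panels.

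Slc25a20 encodes the carrier that exchanges acylcarnitine for carnitine across the inner membrane (chromosome 9, 108662136 to 108684642). It was at 20.23, 16.69 and 18.55 FPKM in aged and at 20.01, 21.83 and 22.91 FPKM in young libraries. The groups overlapped only through aged 1, which lay just above young 1. Its log2 change of -0.21 ± 0.08 (SE) was the largest of the 10 in size, with an unadjusted p of 0.0255 and a limma adjusted p of 0.325. The estimated reads were few, 158 to 224 per library, and counting alone gives a variation of 7.19%, close to the 9.58% among aged and 6.79% among young libraries.

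Cpt2, which moves the chain back from carnitine to coenzyme A inside the matrix (chromosome 4, 107903982 to 107923589), had the lowest level of the 10. It was measured at 7.31, 7.76 and 7.66 FPKM in aged and at 6.54, 8.14 and 7.09 FPKM in young libraries. The aged values fell inside the young range. The log2 change was 0.06 ± 0.09 (SE, limma adjusted p = 0.862). Its 95% interval ran from 0.907 to 1.2 times the young level of FPKM + 1, which understates the range for so low a gene. Each library held 85 to 106 estimated reads of it.

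Carnitine itself is taken up by the transporter Slc22a5, which lay at 3.80, 3.17 and 4.37 FPKM in aged and at 3.75, 3.25 and 3.65 FPKM in young libraries (limma adjusted p = 0.892). Of the 8 tested genes of carnitine supply and acylcarnitine handling, 0 passed limma, and 0 reached an unadjusted p under 0.05. The 2 of them with the smallest p were Crot and Crat, transferases of medium and short chains. Crot averaged 26.7 FPKM in aged and 24.3 FPKM in young libraries (adjusted p = 0.552), and Crat 9.10 FPKM in aged and 9.93 FPKM in young libraries (adjusted p = 0.669).

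The dehydrogenases divide the work by chain length. Acadvl acts on very long chains at the inner membrane (chromosome 11, 70010183 to 70015428) and was at 43.99, 39.04 and 43.57 FPKM in aged and at 44.39, 41.02 and 41.79 FPKM in young libraries. The groups overlapped, with the lowest value in aged 2, and the log2 change was -0.008 ± 0.057 (SE; limma adjusted p = 0.978). Its exons overlap those of Dvl2, which lies on the other strand and was at 18.6 FPKM in aged and 17.8 FPKM in young libraries.

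Acadl, the dehydrogenase of long chains (chromosome 1, 66830839 to 66863309), had the highest level of the 10. Its values were 105.84, 105.27 and 99.24 FPKM in aged and 99.22, 107.48 and 103.44 FPKM in young libraries. Means were the same to 4 digits, 103.4 ± 3.66 FPKM in aged and 103.4 ± 4.13 FPKM in young libraries (SD, n = 3 each), with a 95% interval of 0.936 to 1.07 times the young level. The ratio of Acadvl to Acadl was 0.409 ± 0.035 in aged and 0.411 ± 0.033 in young libraries (SD, n = 3 each; exact two-sided permutation p = 0.9).

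Acadm, the medium-chain dehydrogenase (chromosome 3, 153922353 to 153944643), was at 39.05, 34.06 and 36.94 FPKM in aged and at 32.92, 32.6 and 32.42 FPKM in young libraries. Every aged value exceeded every young one, aged 2 by the least. On average the aged level was 1.12 times the young one, a log2 change of 0.16 ± 0.06 (SE; unadjusted p = 0.0178, limma adjusted p = 0.289). The 3 young values, of 364 to 368 estimated reads, varied by 0.78%. Counting alone gives about 5.11% at the mean reads of all 6 libraries. The young libraries thus lay closer together than read sampling would give on average. A processed pseudogene, Gm5131, shares 681 bases at 93.5% identity with the Acadm transcript.

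Hadha and Hadhb encode the alpha and beta subunits of the trifunctional protein, which hydrates, oxidises and cleaves long chains. They lie head to head on chromosome 5 (Hadha at 30119423 to 30154980, Hadhb at 30155253 to 30184593). By the GENCODE vM21 starts, no other pair among the 10 genes and their neighbours within 1 kb was counted as head to head. Etfdh and 4930579G24Rik, which overlap in that annotation, were not counted. Hadha was at 71.2, 69.54 and 69.98 FPKM in aged and at 71.13, 69.6 and 70.16 FPKM in young libraries. Nearly the same 3 values recurred at both ages, the log2 change was -0.0012 ± 0.034 (SE; limma adjusted p = 0.994), and the interval of 0.947 to 1.05 times the young level was the narrowest of the 10. Exons of Garem2 (Gareml in the tables), which had means of 113 FPKM in aged and 108 FPKM in young libraries, overlap those of Hadha on the other strand.

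Hadhb was at 77.64, 78.98 and 78.53 FPKM in aged and at 78.35, 84.35 and 81.4 FPKM in young libraries. The groups overlapped through young 1, with a log2 change of -0.05 ± 0.04 (SE; limma adjusted p = 0.669) that was -0.027 without young 2 and -0.079 without young 1. The value of Hadhb is uncertain, because the processed pseudogenes Gm13910 and Gm9108 share 1428 and 1426 bases with it at 99.8% and 97.6% identity and the authors' counting could have split its reads. The ratio of Hadha to Hadhb was 0.896 ± 0.0188 in aged and 0.865 ± 0.0414 in young libraries (SD, n = 3 each; exact two-sided permutation p = 0.3, where 0.1 is the smallest possible). Its log2 difference of 0.052 was 0.019 without young 2 and 0.088 without young 1.

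**Figure D3:**
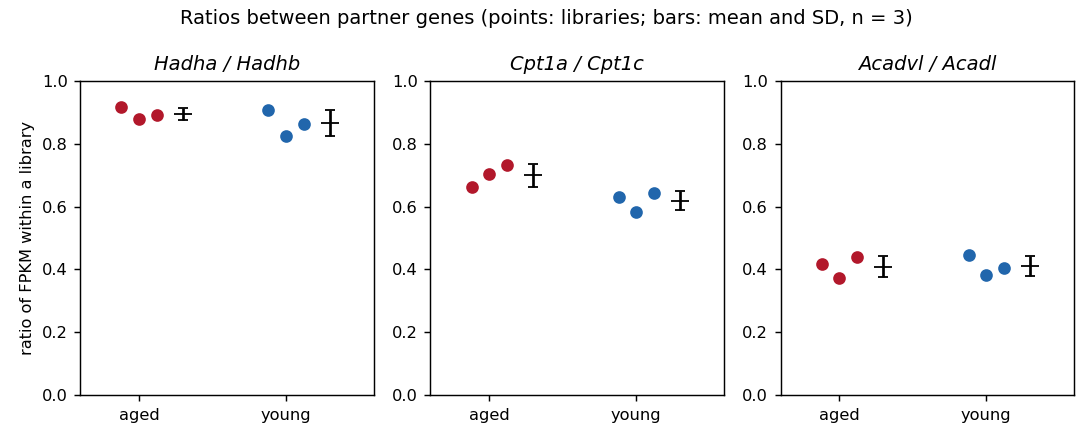
Ratio of FPKM between partner genes (vertical axes, from 0 to 1) in each aged (red, left) and young (blue, right) library, with mean and SD as black bars (n = 3 each). The ratio of Cpt1a to Cpt1c is 0.661 to 0.734 in aged and 0.584 to 0.644 in young libraries, and the other pairs overlap.

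Etfdh, which hands electrons of the acyl-CoA dehydrogenases to ubiquinone (chromosome 3, 79603788 to 79628767), was at 32.3, 33.04 and 30.66 FPKM in aged and at 30.19, 29.18 and 29.9 FPKM in young libraries. The aged values were all higher, by little in aged 3. Its log2 change of 0.10 ± 0.05 (SE) did not pass at an unadjusted p of 0.0621 and a limma adjusted p of 0.448. The gene 4930579G24Rik overlaps exons of Etfdh on the other strand and was at 8.84 FPKM in aged and 7.84 FPKM in young libraries. Its start is 421 bases from that of Etfdh in GENCODE vM21 (79629500). Against the shorter Etfdh bounds given here, it starts outside the gene and points away from it. Electrons reach Etfdh through the flavoprotein subunits Etfa, at 58.01 to 72.08 FPKM over the 6 libraries, and Etfb, at 76.59 to 88.58 FPKM, with ranges that overlapped between the ages.

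By level the 10 genes kept nearly the same order in all libraries. Acadl (mean 103.4 FPKM over the 6) stood above Hadhb (79.9 FPKM), Hadha (70.3 FPKM) and Acadvl (42.3 FPKM), and each of these steps down to Acadvl held without overlap. Cpt1c (37.9 FPKM), Acadm (34.7 FPKM) and Etfdh (30.9 FPKM) followed. Neighbours in the stretch from Acadvl to Etfdh overlapped, and Cpt1c exceeded Acadm in 4 of 6 libraries. Cpt1a (24.9 FPKM), Slc25a20 (20.0 FPKM) and Cpt2 (7.42 FPKM) closed the order without overlap. Among the 10, the 3 steps of acyl-CoA transport into the matrix were thus below the enzymes of the chain itself, apart from Cpt1c, which is known for little transferase activity. This order holds for the 10 only, since other enzymes of mitochondrial beta-oxidation lay below Cpt1a as well as above it. Against all genes tested, Acadl was above 93.7% and Cpt2 above 34.2%, with a median of 79.5% for the 10.

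The summed FPKM of the 10 genes was 461.1, 443.6 and 444.8 in aged and 447.2, 457.4 and 455.5 in young libraries, which overlap. The variation among libraries of a group ran from 0.78% (Acadm, young) to 9.58% (Slc25a20, aged) apart from Cpt2 in young libraries, which varied most, and that of read counting alone from 2.56% (Hadha) to 10.3% (Cpt2). Genes whose pattern over the 6 libraries was most like that of Cpt1c, the gene of the 10 with the smallest p, were Pdxk, Lrp12 and Lmbrd1. Their centred log2 values differed from those of Cpt1c by sums of squares of 0.00234, 0.00369 and 0.00406, the least among 8992 genes of at least 5 FPKM. Pdxk, the closest, was at 29.74 to 32.86 FPKM in aged and 34.45 to 35.49 FPKM in young libraries. With so many genes and 6 libraries such likeness is a description only.

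Around the 10 genes, 9 lists of the same metabolism held 141 further genes, of which 112 were tested. None of the 112 passed limma (0 called), and at an unadjusted p under 0.05 there were 13 (8 higher and 5 lower), a share close to the 11.9% of all genes. Values of the ages did not overlap for 25 of the 112, against 17.6% of all genes, with no test of that difference. The medians of the lists lay between -0.028 and 0.125 on the log2 scale, against 0.0027 for all genes tested. The highest, 0.125, rests on the 4 tested genes of the list of PPAR-responsive genes.

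Of 20 tested enzymes and helpers of mitochondrial beta-oxidation besides the 10, 14 were higher and 6 lower in aged libraries, with a median log2 change of 0.05 and 0 past limma. Acad12, an acyl-CoA dehydrogenase relative, was at 2.94, 2.61 and 1.78 FPKM in aged and at 1.31, 1.03 and 1.86 FPKM in young libraries (limma adjusted p = 0.3). Acaa2, the thiolase that ends a round for medium chains, was at 28.77, 27.72 and 26.62 FPKM in aged and at 26.58, 24.7 and 25.99 FPKM in young libraries (adjusted p = 0.506). The groups overlapped for Acad12 and just separated for Acaa2. The enzymes Echs1 (46.5 to 52.31 FPKM) and Hadh (46.96 to 51.34 FPKM), which serve shorter chains, overlapped between the ages.

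Peroxisomes shorten very long chains by a separate set of enzymes, and 0 of 16 tested genes passed, with 9 higher and 7 lower. Abcd4, a relative of the peroxisomal transporters that is known for cobalamin export from lysosomes, was at 11.24, 9.84 and 8.71 FPKM in aged and at 8.55, 8.46 and 7.94 FPKM in young libraries (limma adjusted p = 0.392). Its aged values were all above the young ones, aged 3 by the least.

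Upstream of oxidation, 0 of 19 genes of fatty acid uptake, binding and activation passed. Mgll, a lipase of monoacylglycerols, was at 6.55, 6.24 and 6.71 FPKM in aged and at 5.93, 4.74 and 4.33 FPKM in young libraries (log2 change 0.33 ± 0.11 SE, limma adjusted p = 0.270). Pnpla2, which releases fatty acids from lipid droplets, was at 8.88, 9.65 and 10.93 FPKM in aged and at 11.59, 11.23 and 11.88 FPKM in young libraries (adjusted p = 0.322). Values of the ages did not overlap for these lipases, and they differed in opposite directions.

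Malonyl-CoA, the substrate of fatty acid synthesis, restrains CPT1, and 0 of 14 tested genes of its control passed limma. By limma, 2 higher and 1 lower were at an unadjusted p under 0.05, against 11.9% of all genes. Values of the ages did not overlap for 4 of the 14, against 17.6% of all genes, with no test of these differences. Camkk2, a kinase upstream of AMPK, was at 22.97, 23.06 and 22.22 FPKM in aged and at 24.57, 26.16 and 25.34 FPKM in young libraries (adjusted p = 0.268). Mid1ip1, a partner of acetyl-CoA carboxylase, was at 152.15, 154.49 and 150.88 FPKM in aged and at 144.02, 146.52 and 141.22 FPKM in young libraries (adjusted p = 0.322). The ages did not overlap for either gene, nor for Mlycd, which breaks down malonyl-CoA. Mlycd was at 15.14, 15.88 and 15.41 FPKM in aged and at 14.14, 12.91 and 14.32 FPKM in young libraries (limma adjusted p = 0.36). Acaca, the cytosolic carboxylase, lay at 22.62 to 25.75 FPKM over all 6 libraries, whereas Acacb, the form at the mitochondrial membrane, lay at 0.22 FPKM or less.

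Transcription factors that are known to drive these genes were also tested, with 0 of 13 past limma and 0 at an unadjusted p under 0.05. Ncor1, a corepressor, was at 31.1 FPKM in aged and 33.5 FPKM in young libraries on average (adjusted p = 0.446), and the coactivator relative Pprc1 at 15.2 FPKM in aged and 13.9 FPKM in young libraries (adjusted p = 0.542). Of the PPAR receptors, Ppard lay at 11.58 to 15.09 FPKM over the 6 libraries, while Ppara stayed at 0.69 FPKM or less and Pparg at 0.39 FPKM or less. Esrra, the receptor ERR alpha, lay at 35.27 to 38.65 FPKM. Of genes that answer to PPARs elsewhere, Acot1, a cytosolic acyl-CoA thioesterase, averaged 75.0 FPKM in aged and 68.9 FPKM in young libraries (adjusted p = 0.266), a value that is uncertain because Acot2 is a near copy. Vldlr, a lipoprotein receptor, averaged 7.92 FPKM in aged and 6.87 FPKM in young libraries (adjusted p = 0.346). Pdk4 (0.69 FPKM or less) and Angptl4 (0.29 FPKM or less) were near 0 in all libraries.

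**Figure D4:**
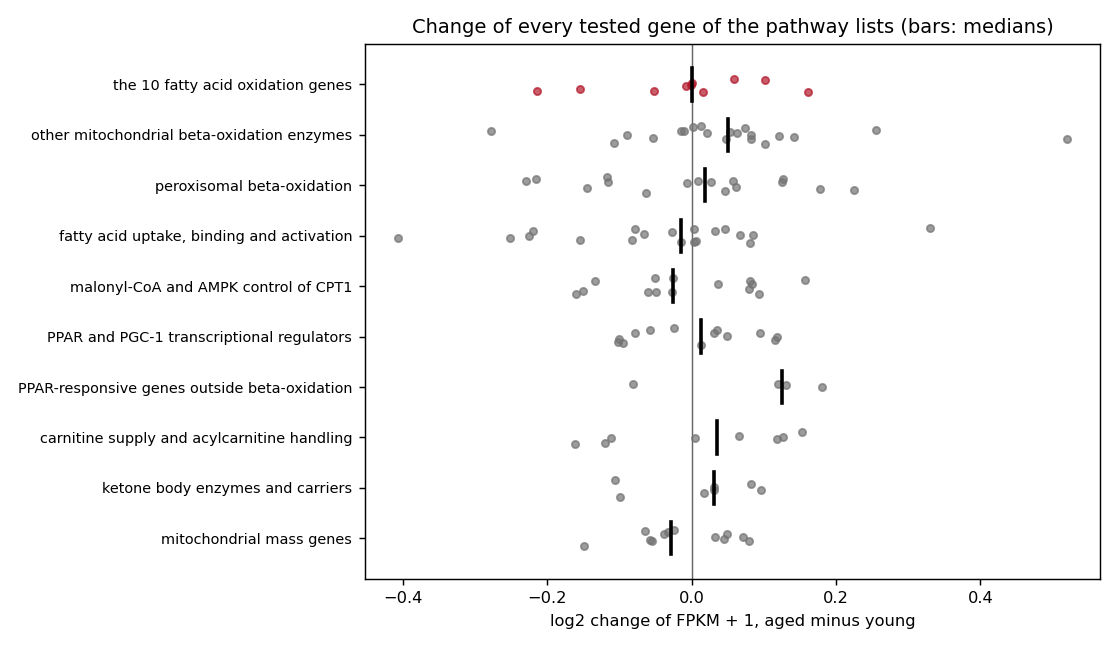
Each point is the log2 change of FPKM + 1 (aged minus young, horizontal axis) of a tested gene, by list, with the list median as a black bar; the 10 fatty acid oxidation genes are red. Medians of the 9 other lists lie between -0.028 and 0.125, and 0 of the points passed limma's adjustment over all genes.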

How the data were processed

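Per the labels' protocols, ribosomal RNA was removed from 1 ug of total RNA before library preparation with MGI reagents. The authors deposited 1 table of FPKM values with 2 decimals per library, per the file headers. The submitters' processing notes name TopHat, Cuffdiff and the mm10 build, without version or order. Strand setting, annotation version and scaling between libraries are not given in the sources used here.

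Genes were matched by identifier to RefSeq GRCm38.p6, which held 16962 of 17006, and 32 blank or date-like symbols were replaced. The test was limma 3.58.1 in R 4.3.3 (trend, all 6 libraries, no covariates, two-sided) on log2(FPKM + 1) for the 11912 genes whose mean reached 1 FPKM, called at 0.05 after Benjamini-Hochberg adjustment over all of them. Changes on this scale are understated for low genes. Ratios were tested by exact permutation. The lists, like the 10 genes, were chosen with earlier results of these data known.

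Named genes outside the 10 were the 2 with the smallest p of each list, 3 like Cpt1c, and head-to-head neighbours; 1 gene that this rule names is not reported here. Echs1, Hadh, Etfa, Etfb, Slc22a5, Acaca, Acacb, Mlycd, Cpt1b, Esrra, Pdk4, Angptl4 and Oxct1 were added with their values seen, for their roles. So were the receptors, the cell markers, the overlapping genes and the pseudogenes, for their roles or positions.

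Depth was estimated from steps in values of genes with a single transcript: the library total was chosen so that FPKM times length times that total gave whole reads. As a check, of values worth 3.5 to 10.5 reads, left out of that choice, 57.8% to 62.6% were whole to within 0.15 (30% if spread evenly). Estimated reads use GENCODE vM21 lengths and are approximate. Counting errors were taken from the mean estimated reads of all 6 libraries and cover counting only. Similar transcripts (at least 90% identity over 100 bases) were found with blastn 2.17.0. Figures were drawn with matplotlib 3.10.9 in Python 3.11.15, and tables handled with numpy 2.4.6 and pandas 2.3.3. Alternatives were other pseudocounts, filters, scalings, limma options, a replicate block and leaving out each library.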

Additional observations from a re-analysis of the deposited data

How the results depend on the processing

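In all 17 alternatives 0 of the 10 genes passed limma, with 2 to 4 at an unadjusted p under 0.05. Their lowest adjusted p was 0.143 (Acadm, without aged replicate 2). Cpt1c, Slc25a20, Hadhb, Acadm and Etfdh kept their direction throughout. Others changed sign near 0: Acadl (-0.00993 by quantile normalization, -0.0125 as TPM, -0.00178 by median ratio scaling, -0.0278 to 0.0305 with a library left out), Acadvl (0.00555 with array weights, -0.0382 to 0.0459 with a library left out), Hadha (0.00179 with array weights, -0.0109 to 0.00725 likewise), Cpt1a (-0.0243 to 0.0514 likewise) and Cpt2 (-0.00412 to 0.135 likewise). The log2 ratio of Acadvl to Acadl ranged from -0.063 to 0.0588 with a library left out.

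The 86 genes called overall were 11 without trend, 22 in a fit with a replicate block, and 39 to 63 with a library left out (39 without young replicate 3, 41 without young replicate 1, 45 without young replicate 2, 48 without aged replicate 1, 50 without aged replicate 3); the cause was not tested. Same-numbered libraries showed little joint deviation (correlations 0.00795, -0.0719 and 0.108), and differently numbered ones gave -0.109 to 0.111. Such weak values cannot decide whether the numbers pair the libraries. The block called 0 of the 10. Cpt2 and Slc25a20 had the fewest estimated reads of the 10, at 85 to 224, and the part of depth in their results was not tested.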

Other observations

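Ketone bodies are the other fat-derived fuel of the brain, and 0 of 7 tested genes of their enzymes and carriers passed limma, with 0 at an unadjusted p under 0.05. Acat1, the thiolase of mitochondrial ketone use, was at 63.22, 59.93 and 62.92 FPKM in aged and at 58.14, 59.22 and 58.19 FPKM in young libraries, which did not overlap (adjusted p = 0.448). The monocarboxylate carrier Slc16a1 was at 18.8 FPKM in aged and 17.5 FPKM in young libraries on average (adjusted p = 0.611). Oxct1, which activates ketone bodies for use, lay at 64.73 to 70.42 FPKM over all 6 libraries.

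Of 12 genes listed as gauges of mitochondrial content, 5 were higher and 7 lower in aged libraries, and 0 passed limma. Mitochondrial content itself was not measured. The outer membrane channel Vdac1 was at 250.57, 246.55 and 250.1 FPKM in aged and at 236, 234.88 and 236.02 FPKM in young libraries (adjusted p = 0.268). The import receptor Tomm20 was at 32.37, 31.72 and 34.58 FPKM in aged and at 34.99, 37.18 and 37.53 FPKM in young libraries (adjusted p = 0.293). Both outer membrane genes separated the ages, in opposite directions, with 1 gene higher and 1 lower at an unadjusted p under 0.05 in the list.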
